A study of Homo sapiens with 4 samples.

Results

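The loci described here are short stretches of the genome, under 1000 bp wide, at which the assembler built a transcript in 1 library of LNCaP cells but did not place it at the same position in all 4. They were chosen by position and width: rows with an assembler number in place of an Ensembl identifier, on chromosomes 1 to 22 or X, whose exact start and end are not listed in every library. There were 28508 and 31614 such loci in empty vector libraries 1 and 2, and 34918 and 40447 in CRYM libraries 1 and 2. They made up 31.9% and 34.0% of all rows in the empty vector libraries (89428 and 92898 rows), and 36.2% and 39.3% with CRYM (96477 and 103044 rows). Together they occupy 134916 distinct positions of 218862 listed in the series. The assembler lists a locus from the reads of a library, so the rule rests on the measured reads, although 14 to 21 of the loci in a library are listed at an FPKM of 0. The number, width, level and place of the loci are therefore given as descriptions.

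Assembly from short reads joins overlapping or spliced reads into transcripts and closes a locus where coverage stops. Short unnamed loci can be exons of unannotated genes, stretches of intron in RNA that is not fully spliced, RNA that runs past the end of a gene, promoter or enhancer transcripts, or pieces of a longer transcript covered too thinly to be joined. In a polyadenylated RNA library, intron reads come mostly from RNA that has a tail but keeps an intron, or from A-rich stretches inside introns. Where coverage is thin, the ends of such a locus depend on where the outermost reads happened to fall.

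LNCaP is an established human prostate cancer line grown from a lymph node metastasis. Its cells, at passage 22, were transiently transfected with 2500 ng of a plasmid that carries CRYM or with the matching empty plasmid, using 12 µL of Lipofectamine 2000, in medium with serum. RNA was taken at 48 h and made into stranded mRNA libraries read as 50-bp single reads, 2 libraries in each group. The product of CRYM is mu-crystallin, which holds thyroid hormone in the cytosol. The promoter that drives CRYM in the plasmid and the share of cells that took it up are not given in the sources used here. The labels call the libraries of a group biological replicates without saying that they came from separate cultures, so the spread between them may be technical. Each value is an FPKM, a fragment count scaled to transcript length and to library size, with a deposited interval. Read as 2 SD of counting error on each side, that interval implies a number of fragments behind the value, which was whole (within 0.02) at 41.9% to 42.4% of these loci. All 8 luminal prostate markers were at 46.8 FPKM or more in every library, KRT8 and KRT18 at 155.0 to 177.8. The androgen-dependent KLK2, KLK3 and TMPRSS2, and SPDEF, were lower in both CRYM libraries, and EPCAM was at 59.9 and 62.8 FPKM against 82.2 and 77.8. Of the markers of other cell types, TP63 (basal), PTPRC (immune), CDH5 (endothelial), INSM1 and CHGA (neuroendocrine) were at 0.0761 FPKM or lower, CLDN5, LUM and SYP at 0.136 to 0.932, and CD74, HLA-DRA and COL1A1 at 1.56 to 5.78.

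The region of MIR657 on chromosome 17 shows what "not at the same position" means. The hairpin itself lies at chr17:79099076-79099173 in the files' build, hg19, and an assembled locus covered it in every library with slightly different ends. Empty vector library 1 had it at chr17:79098979-79099604 with 0.460 FPKM and 24.6 implied fragments, and empty vector library 2 at chr17:79099019-79099604 with 0.263 FPKM and 14.8 fragments. CRYM library 1 had it at chr17:79098987-79099595 with 0.638 FPKM and 26.0 fragments, and CRYM library 2 at chr17:79099012-79099603 with 0.430 FPKM and 21.9 fragments. By position these count as 4 different loci, although they cover the same stretch. In all, short loci with an FPKM above 0 overlapped 29 different annotated miRNA loci, between 9 and 15 in a library. Another 10 short loci had the exact position of an annotated miRNA locus and an FPKM of 0, and are left out here. Of 4 overlapped in at least 3 libraries, MIR657 and MIR4740 are those for which RefSeq (GRCh38.p14) lists mature sequences. They are shown here, 5′ to 3′ with the seed (bases 2 to 8) in capitals, because they identify which annotated RNAs the assembled stretches run over.
hsa-miR-657: gGCAGGUUcucacccucucuagg
hsa-miR-4740-5p: aGGACUGAuccucucgggcagg
hsa-miR-4740-3p: gCCCGAGAggauccgucccugc
The 3 seeds differ. The MIR4740 hairpin, chr17:79374516-79374578, was overlapped at chr17:79374473-79374961 (0.316 FPKM) and chr17:79374557-79375024 (0.438 FPKM) in empty vector libraries 1 and 2 and at chr17:79374004-79374955 (0.608 FPKM) in CRYM library 2. The library type captures polyadenylated RNA, so the values describe the longer RNA around a hairpin and not the mature miRNA.

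Short assembled loci were more numerous in both CRYM libraries than in either empty vector library. The group means were 30061 ± 2196 and 37683 ± 3910 loci (SD, n = 2 each), a ratio of 1.25, and single pairs of a CRYM and an empty vector library gave 1.10 to 1.42. The 2 lower counts of the 4 are the empty vector libraries, so the groups do not overlap, but the CRYM libraries differed from each other by more than CRYM library 1 differed from empty vector library 2. With 2 libraries against 2, an exact two-sided permutation test cannot give a p below 0.333, which is the p obtained here and for each group difference below whose libraries do not overlap. Sequencing depth did not order the libraries the same way. From what 1 fragment is worth at loci of 60 bp, depth relative to empty vector library 1 was 1.15 for the other empty vector library, and 0.842 and 1.07 for CRYM libraries 1 and 2. The library with the lowest depth therefore held more short loci than both empty vector libraries. The estimate depends on width. At 500 bp 1 fragment was worth 0.0366 and 0.0345 FPKM with the empty vector and 0.0485 and 0.0401 with CRYM. These medians rest on 14 to 19 loci in a library. By them CRYM library 1 was again lowest in depth, but CRYM library 2 was below empty vector library 1. Divided by relative depth, the numbers were 28508 and 27460 with the empty vector and 41451 and 37754 with CRYM, with pair ratios of 1.32 to 1.51. The number of assembled loci need not grow in proportion to depth, so the divided values are a second view and not a correction. Among loci with at least 20 implied fragments the ratio of group means was 1.29, and with that threshold scaled to each library's depth, a setting added after seeing the data, it was 1.53.

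**Figure D1:**
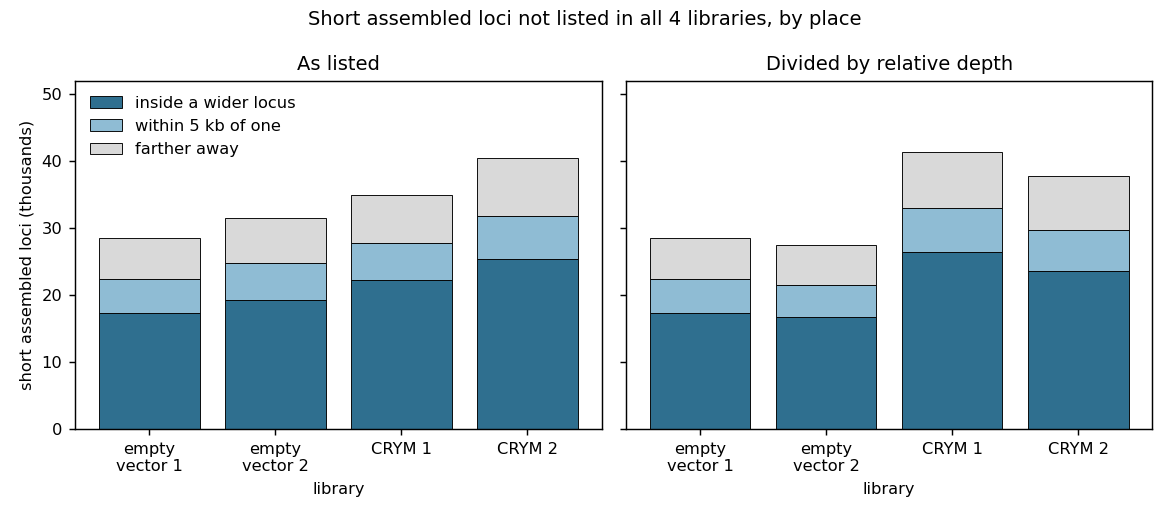
Number of short assembled loci (vertical axis, in units of 1000) in each of the 4 libraries, as listed (left) and divided by the library's depth relative to empty vector library 1 (right); colours give the place relative to wider loci of at least 5 kb with FPKM of at least 1. Both CRYM libraries stand above both empty vector libraries in each panel, at 34918 and 40447 against 28508 and 31614 as listed.

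Width, fragments and their distribution were nearly the same in every library. The median width was 357 and 351 bp in the empty vector libraries and 350 bp in both CRYM libraries, and 22.4% to 24.2% of loci were under 200 bp. The median locus rested on 17.0 implied fragments in each library, with a lower quartile of 11.9 and an upper quartile of 28 to 30. Between 57.5% and 59.8% of loci had 10 to 20 fragments, and 3.06% to 3.64% had 100 or more. The 5th percentile was 9.59 fragments in every library, so part of this likeness may come from a shared lower limit, which was not tested. Fragments from the same molecule cannot be told apart in these tables, so intervals built from them cover counting error only. The limit of 1000 bp fell inside a continuous range: loci of 990 to 999 bp numbered 66 to 98 in a library with a median of 42.4 to 47.5 fragments, and assembled loci of 1000 to 1009 bp numbered 63 to 84 with 41.3 to 46.0.

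FPKM at these loci followed their width far more than the number of fragments behind them. Across loci within a library, which are not independent, the Spearman correlation of FPKM with width was -0.84 in all 4 libraries, and with implied fragments 0.10 to 0.12. Loci under 70 bp, 1.61% to 1.80% of the total, had a median FPKM of 6356 to 9854 on 13 fragments. Loci of 500 to 999 bp, 28.2% to 29.1% of the total, had a median of 0.592 to 0.796 FPKM on 25 to 25.8 fragments. In empty vector library 1 a single fragment was worth 1857 FPKM at a 60-bp locus, 0.440 at 200 bp and 0.0366 at 500 bp. Only 5.52% to 6.30% of the short loci were under 100 bp, yet these carried 83.5% and 82.4% of the summed FPKM of all rows with the empty vector and 87.4% and 90.0% with CRYM. All short loci together carried 86.6%, 85.8%, 90.4% and 93.1% of that sum, in the same order. A share of summed FPKM in these tables is therefore mostly a statement about the shortest loci.

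The median FPKM of the short loci was 1.63 and 1.54 with the empty vector and 2.07 and 1.74 with CRYM, a ratio of group means of 1.20. CRYM library 1, which has the highest median, is also the library in which 1 fragment is worth most. Multiplied by relative depth the medians were 1.63 and 1.77 against 1.75 and 1.86, and the groups overlapped. Restricted to loci with an FPKM of at least 1, the ratio was 1.04. The implied fragments of all short loci summed to 767616 and 878991 with the empty vector and 954881 and 1176760 with CRYM. Divided by depth these sums were 767616 and 763503 against 1133520 and 1098423, so that both CRYM libraries had more reads in such loci as well as more loci.

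**Figure D2:**
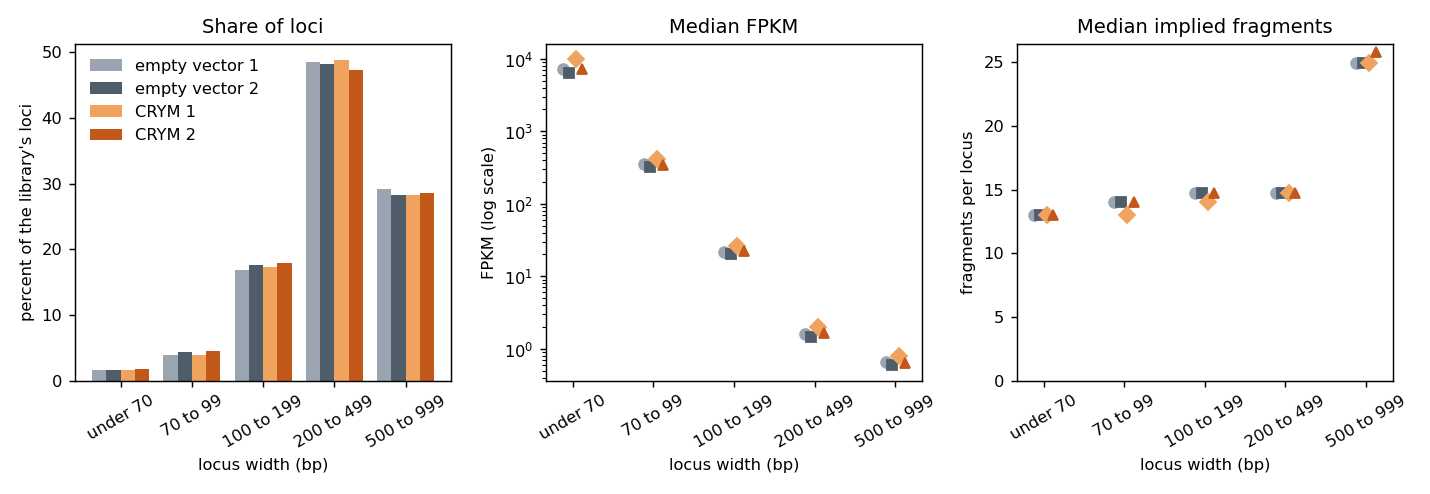
Short assembled loci by width class (bp, horizontal axis) in the 4 libraries, as the percent of the library's loci (left), the median FPKM on a log scale (middle) and the median implied fragments (right). FPKM falls from 6356 or more under 70 bp to under 1 at 500 to 999 bp, while the median number of fragments stays between 13 and 25.8.

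With the limits used here most short loci lay inside wider loci, which are the size of genes: at least 5 kb wide, with an FPKM of at least 1 in the same library. Inside were 17366 and 19258 loci with the empty vector and 22311 and 25370 with CRYM. Within 5 kb of a wider locus were 5036, 5549, 5571 and 6440, and farther away 6106, 6807, 7036 and 8637, in the same order. The share inside was 60.9% in both empty vector libraries, and 63.9% and 62.7% with CRYM, a difference of 2.39 percentage points. The share near was 17.7% and 17.6% against 16.0% and 15.9%, and the share away 21.4% and 21.5% against 20.2% and 21.4%. Wider loci spanned 25% to 26.1% of the chromosome lengths covered, and held 22.9 and 25.1 short loci per Mb with the empty vector and 28.5 and 32.1 with CRYM. Outside them the density was 4.89 and 5.45 against 5.60 and 6.72 per Mb. Of the 15243 short loci by which the CRYM libraries together exceeded the empty vector libraries, 11057 (72.5%) were inside, 1426 (9.36%) near and 2760 (18.1%) away. By pairs of libraries the ratio of numbers was 1.16 to 1.46 inside, 1.00 to 1.28 near and 1.03 to 1.41 away, so the surplus was in all 3 places, but near and away CRYM library 1 hardly exceeded empty vector library 2. The groups overlapped in the share inside for loci with an FPKM of at least 1, where it was 73.1% and 74.9% against 72.8% and 76.3%. The share itself depended on what counts as a wider locus: it was 46.0% to 49.5% with wider loci of at least 5 FPKM and 36.8% to 38.6% with wider loci listed in all 4 libraries at 1 FPKM or more. It was 1.24% to 3.39% for short loci that at least 1 other library did not overlap with any locus. That definition itself leaves out short loci that lie under wider loci of all the other libraries.

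Loci inside wider loci differed in form from the others in every library. Their median width was 274 to 289 bp, against 440 to 467 bp for those near or away, and their median FPKM 3.22 to 3.94 against 0.791 to 1.10. Their median number of fragments, 18.0 to 18.9, was close to that of loci near (16.0 to 17.0) and away (14.7), so the difference in FPKM went with width. Of loci of 70 to 99 bp, 91.1% to 92.6% were inside, and of loci of 500 to 999 bp 43.9% to 47.3%. Short loci also lay close to each other. The median gap to the nearest other short locus of the same library was 0.361 and 0.341 kb with the empty vector and 0.329 and 0.308 kb with CRYM, and 67.2% to 70.3% had another within 1 kb.

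Inside protein-coding wider loci, short loci were spread along the whole gene with more at the 3′ end. For 5657 such wider loci, listed at the same position in all 4 libraries and oriented by the strand GENCODE gives their gene, the last 20% of the length toward the 3′ end held 27.5% and 26.9% of the short loci with the empty vector and 29% and 28.8% with CRYM. The first 20% held 19.7% to 21.1% and the middle 20% held 15.4% to 16.4%. The files give no strand, so a short locus may be transcribed from either strand of the gene it lies in. Outside wider loci and within 5 kb of these genes, 1258 and 1372 short loci were upstream and 1110 and 1256 downstream in empty vector cells. In CRYM cells 1443 and 1651 were upstream and 1156 and 1345 downstream, so that downstream loci were 46.9% and 47.8% of the 2 classes with the empty vector and 44.5% and 44.9% with CRYM.

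**Figure D3:**
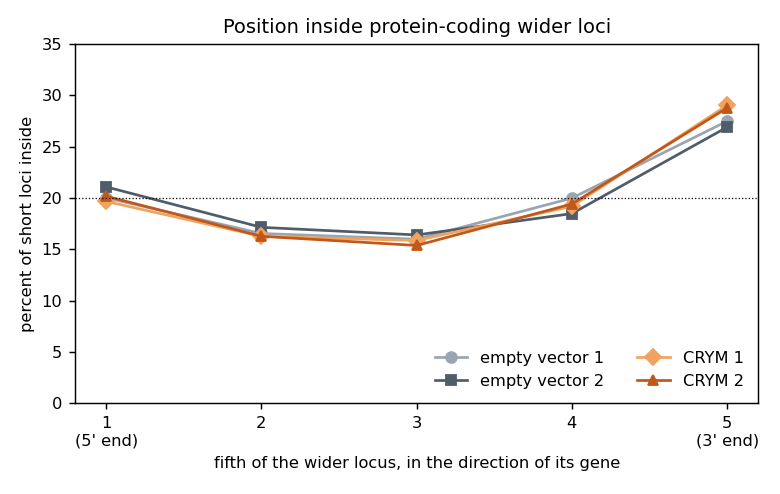
Percent of the short assembled loci inside protein-coding wider loci (vertical axis) that fall in each 20% of the length of the wider locus from the 5′ to the 3′ end of its gene (horizontal axis), with 1 line per library and a dotted line at 20 percent. All 4 libraries follow the same curve, lowest in the middle (15.4% to 16.4%) and highest in the last (26.9% to 29%).

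The exact position separated libraries much more than overlap of position did. Between 99.0% and 99.2% of the short loci were listed at their exact position in 1 file only, 210 to 237 in 2 files and 51 to 67 in 3. Yet 85.4% to 95.1% overlapped some listed locus of a given other library by at least 1 bp. That share counts annotated loci and loci listed at an FPKM of 0, so it does not show that RNA was present there. In 71.7% to 74.0% of cases a listed locus of at least 5 kb in that library, at any FPKM, overlapped them by at least 1 bp. Such cases are part of the first share. Their working name, private to one library, therefore holds for their boundaries, and for the region it depends on what counts as the same locus. Counting only short assembled loci with an FPKM above 0 as counterparts, 55.7% of the loci of empty vector library 1 had one in the other empty vector library, and 52.1% and 53.1% in CRYM libraries 1 and 2. For empty vector library 2 the shares were 50.7% in its replicate, and 50.2% and 52.7% in CRYM libraries 1 and 2. For CRYM library 1 they were 42.3% and 44.7% for the empty vector pair and 56.8% for its replicate. For CRYM library 2 they were 37.4% and 41.0% for that pair and 49.7% for its replicate. In 3 of the 4 libraries the highest share was with the other library of the same group, and empty vector library 2 had its highest with CRYM library 2.

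Between 7220 and 7285 short loci in each library had short counterparts in all 3 others, which were 25.3%, 23%, 20.7% and 17.9% of the total. An overlap counts for both libraries of a pair, so similar numbers here follow largely from the definition. The surplus in CRYM cells then falls among loci seen less widely, which is not a separate result. Loci with no short counterpart in any other library numbered 5301 and 6565 with the empty vector and 8158 and 12250 with CRYM. Those whose only counterpart was in the other library of the same group numbered 3335 and 3418 with the empty vector and 6150 and 6364 with CRYM. Those with counterparts in both libraries of the other group and not in their own numbered 2882 and 3594 against 2553 and 2662. Loci without a counterpart were thinner, with a median of 13 to 14 fragments, than those with 3 counterparts, with 22.0, 25.2, 25 and 32.7 fragments. A larger library has more loci to overlap, so these shares depend on the number of loci in both libraries of a pair.

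**Figure D4:**
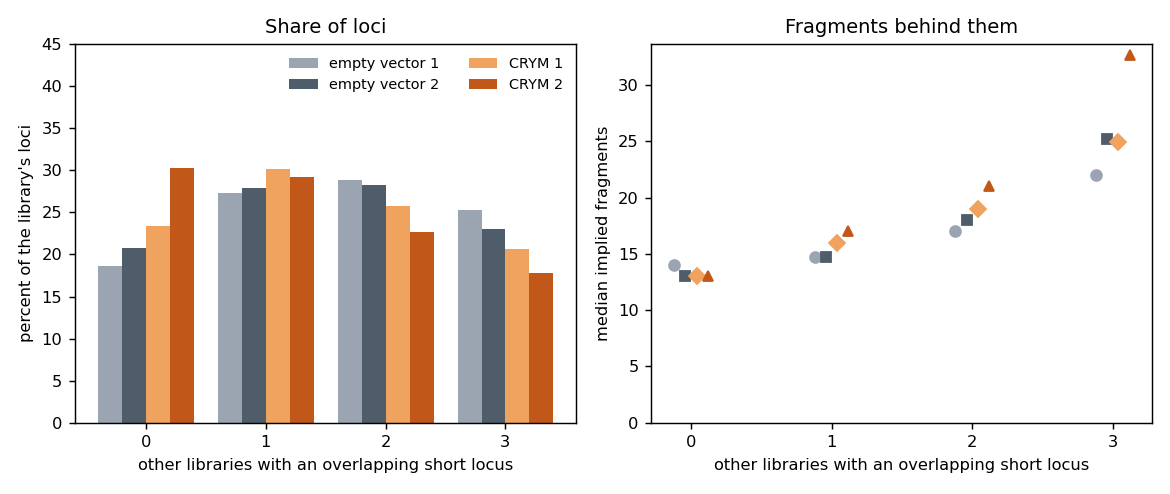
Percent of each library's short assembled loci (left) and their median implied fragments (right) by the number of other libraries that have an overlapping short assembled locus (0 to 3, horizontal axis). CRYM library 2 has the largest share without any counterpart (30.3%) and the smallest with 3 (17.9%), and fragments go up with the number of counterparts in every library.

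Strictly private loci, with no listed locus of any kind overlapping in the other 3 libraries, were few: 643 (2.26%) and 1068 (3.38%) with the empty vector and 904 (2.59%) and 2661 (6.58%) with CRYM. As numbers the groups overlap, since empty vector library 2 has more than CRYM library 1. These loci were wider than the rest, with a median of 397 to 418 bp, and thin, with 11 to 11.9 fragments and 0.659 to 0.943 FPKM. Inside wider loci were 3 and 8 of them with the empty vector and 27 and 29 with CRYM, and 47.3% to 60.1% lay away. A wider locus of another library that lies over a short locus excludes it here. The definition itself therefore leaves few loci inside and raises the share away.

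Some regions held short loci in both libraries of a group and no row with an FPKM above 0 in either library of the other. There were 517 and 523 such loci with the empty vector (1.81% and 1.65%) and 1496 and 1544 with CRYM (4.28% and 3.82%), with a median of 13 to 14.7 fragments. Because the absence in the other group chose them, they are listed without a test. Among those at least 200 bp wide in both libraries, the highest in CRYM cells was chr3:49451114-49451356, at 23.7 and 27.0 FPKM with 67.0 implied fragments in each library. The next was chr16:33844568-33844836, at 14.1 and 12.0 FPKM with 43.4 and 51.9 fragments, and another nearby, chr16:33848652-33848859, was at 6.05 and 6.27 FPKM. The others were chr15:66786994-66787233 (7.28 and 11.7 FPKM, 2.06 kb from MIR4512), chr12:79118782-79119029 (8.74 and 5.94 FPKM) and chr10:5919166-5919401 (5.59 and 7.03 FPKM). In empty vector cells the highest was chr15:44035306-44035555, at 11.7 and 5.60 FPKM with 42.4 and 58.2 fragments. The best covered were chr9:85678399-85679244, at 4.32 FPKM with 156.0 fragments in library 1 and as 2 pieces of 6.04 and 10.1 FPKM in library 2, and chr6:17585501-17586084, at 3.53 and 6.41 FPKM with 120.7 and 155.0 fragments. The remaining ones were chr4:89635026-89635231 (5.20 and 4.66 FPKM, 15.6 kb from NAP1L5) and chr10:12197418-12197774 (4.92 and 4.25 FPKM).

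Wider loci that were listed at the same position in all 4 libraries with an FPKM of at least 1 in each allow a comparison with the level of the gene around the short loci. Of 7176 such loci 3787 held at least 1 short locus, with a median of 7 over the 4 libraries. The 100 with most short loci held 17.2% and the 500 with most 48.6% of all 52568 pairs of a short locus and a wider locus, where a short locus inside nested wider loci is counted for each. The number of short loci went only weakly with the width of the wider locus (Spearman 0.18 over 3787 loci, a description across loci of the same libraries) and hardly with its FPKM (0.03). In 842 wider loci both CRYM libraries held more short loci than both empty vector libraries, 22.2% of those holding any, and in 275, 7.26%, both held fewer. Leaving out 1 library in turn gave 1136 to 1624 with more and 492 to 690 with fewer, since fewer libraries then have to agree. Counting only short loci with at least 20 implied fragments gave 574 and 189, of which 384 and 102 were among the 842 and 275.

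The FPKM of the wider loci was compared between groups with limma over the 10091 loci listed in all 4 files, of which 15.7% were higher and 17.7% lower in CRYM cells (33.3% in either direction). In bulk RNA, fewer cells that express a gene and less RNA per cell cannot be told apart. Of the 842 wider loci with more short loci in CRYM cells 839 were tested, and 181 (21.6%) were higher and 92 (11%) lower, with a median log2 difference of 0.06. Of the 275 with fewer, 274 were tested, and 31 (11.3%) were higher and 61 (22.3%) lower, with a median of 0.01. Both sets are drawn from wider loci that held at least 1 short locus. Of these 3773 were tested, and 652 (17.3%) were higher and 586 (15.5%) lower. Of 3363 tested wider loci that held no short locus, 482 (14.3%) were higher and 843 (25.1%) lower. Seen from the other side, wider loci whose FPKM was higher in CRYM cells held 1639 and 1889 short loci with the empty vector and 2459 and 2841 with CRYM, a ratio of 1.502. Wider loci whose FPKM was lower held 1526 and 1721 against 1749 and 1930, a ratio of 1.13. Wider loci with no call held 7608 and 8320 against 9580 and 10975, a ratio of 1.29. The group totals of short loci were thus larger with CRYM in wider loci with and without a call, and the ratio was lowest where FPKM was lower. There CRYM library 1, at 1749, hardly exceeded empty vector library 2, at 1721. A wider locus with no call may still have changed in FPKM. These calls rest on 2 libraries a group: leaving out any 1 of the 4 left 0 calls over all loci, with smallest limma adjusted p-values of 0.0550 to 0.0712 and 3627 to 3815 loci at an unadjusted p under 0.05, so each call named below is lost without any 1 library.

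Names of wider loci were given by their order among named neighbours together with their length, as the files leave most of them unnamed, and their positions are in hg19. PPFIA2 (chr12:81652045-82153332), which encodes liprin-alpha-2, a scaffold of presynaptic sites, held the most short loci, 79 and 61 with the empty vector and 107 and 101 with CRYM. Its FPKM was 18.7, 19.3, 33.6 and 20.3 in the same order, so CRYM library 1 alone stood apart, and it was not called (limma adjusted p = 0.324). TTC6 (chr14:38065052-38510647) held 75, 85, 88 and 94, at an FPKM of 19.4 to 21.5. MYO6 (chr6:76458909-76629254), an actin motor that moves toward the minus end of filaments, held 27, 30, 29 and 30, hardly differing between groups, while its FPKM went from 146.8 and 144.3 to 232.4 and 223.0, a 1.56-fold rise (log2 difference 0.64, SE 0.03, limma adjusted p = 0.00664). SHTN1 (chr10:118643742-118886097), which encodes the neuronal polarity protein shootin-1, held 26 and 23 against 38 and 36, and its FPKM rose 1.58-fold, from 24.3 and 24.7 to 39.6 and 38.0 (limma adjusted p = 0.00709). Unnamed wider loci with many short loci were chr9:37510889-38069210, with 32, 36, 41 and 39, and chr21:10906201-11098980, with 23, 34, 35 and 42. A pair of overlapping wider loci on chromosome 11, chr11:58701116-58826132 and chr11:58672871-58818444, had 24, 32, 30 and 43 and 20, 34, 22 and 38, where the second library of each group had more than the first. One nested in the PPFIA2 locus, chr12:81771821-81866733, had 35, 25, 37 and 44, which are also counted for PPFIA2.

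The largest difference toward CRYM cells was that of PPFIA2, given above, and 9 other wider loci followed. GMDS-DT (chr6:2245982-2482256), the divergent long noncoding RNA beside the GMDS gene, held 15 and 16 short loci in empty vector cells and 49 in each CRYM library. Its own FPKM was 7.76 and 4.90 against 6.36 and 3.75 (limma adjusted p = 0.577), so the groups were apart in short loci and overlapped in FPKM. ANK3 (chr10:61786056-62493248), which encodes ankyrin-G, the adaptor between membrane proteins and the spectrin cytoskeleton, held 8 and 7 against 31 and 26. Its FPKM rose 2.50-fold, from 21.3 in both empty vector libraries to 54.9 and 51.6 (log2 difference 1.28, SE 0.04, limma adjusted p = 0.00489), and with at least 20 fragments it held 2 and 2 short loci against 20 and 18, while GMDS-DT held 1 and 4 against 12 and 16. HDAC8 (chrX:71549366-71792953), a histone deacetylase that also acts on cohesin, held 9 and 6 against 28 in both CRYM libraries, with overlapping FPKM of 11.9 and 17.1 against 17.2 and 9.59 (limma adjusted p = 0.805). SNED1 (chr2:241938255-242034983), an extracellular matrix protein gene, held 8 and 15 against 22 and 35, with an FPKM of 6.06 and 4.65 against 2.98 and 3.35 that did not pass (limma adjusted p = 0.0641, and 0.0497 with quantile normalization). Among unnamed wider loci, chr6:52842751-52860176, only 17.4 kb wide, went from 2 and 5 to 24 and 23 short loci. The wider locus at chrX:62854847-63005426 held 1 and 14 against 28 and 27, and chr6:166822852-167370679 held 15 and 8 against 26 and 37. At chr16:639357-684116 there were 7 and 12 against 23 and 27. The one at chr7:66093868-66276451, named AC027644.4 by its neighbours, held 20 and 16 against 31 and 43. Of these 9 and PPFIA2, ANK3 and the one on chromosome 7 were called higher in FPKM, beside 15.7% of all tested loci. The one on chromosome 7 rose 1.13-fold at a limma adjusted p of 0.0497, which was lost with median ratio scaling (0.0514).

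**Figure D5:**
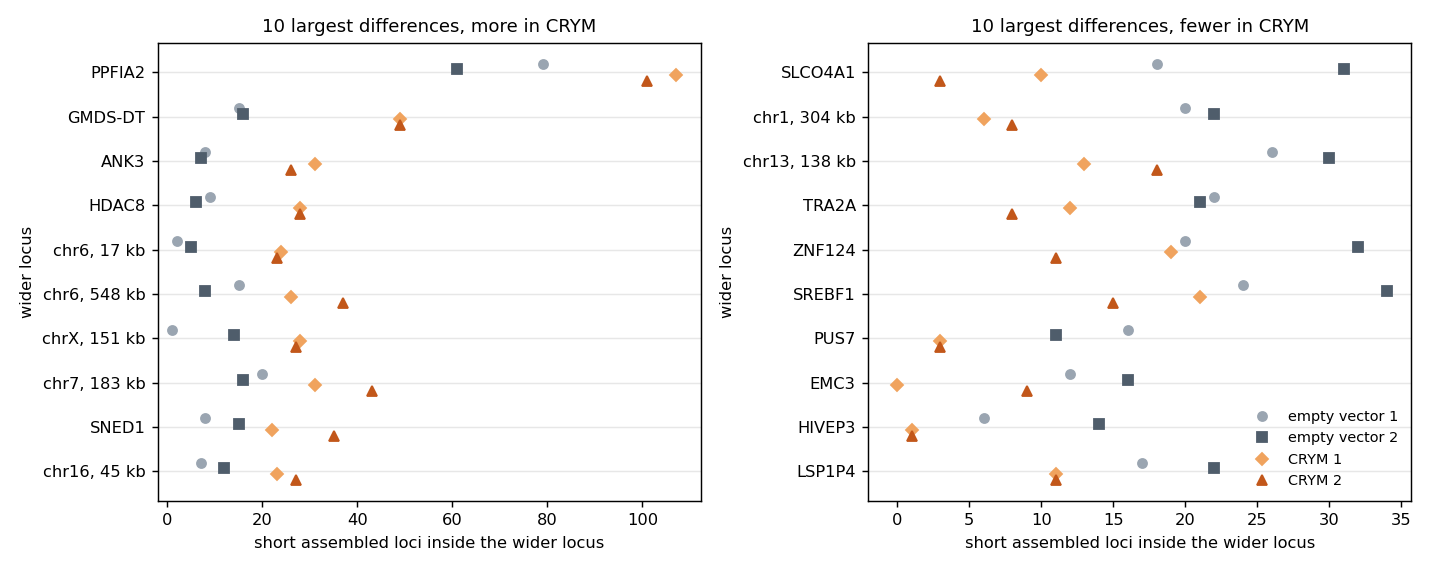
Number of short assembled loci (horizontal axis) inside the 10 wider loci with the largest difference toward CRYM cells (left) and the 10 with the largest difference toward empty vector cells (right), with 1 point per library. Wider loci with no name, or with a name like AC027644.4 that contains a dot, are given by chromosome and width. The wider loci shown were chosen because the groups do not overlap, from 8 and 7 against 31 and 26 in ANK3 to 17 and 22 against 11 and 11 in LSP1P4.

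The 10 wider loci with the largest differences toward fewer short loci in CRYM cells are given next. SLCO4A1 (chr20:61273797-61317137), an organic anion transporter that also carries thyroid hormone, held 18 and 31 with the empty vector and 10 and 3 with CRYM, at an FPKM of 15.9, 15.4, 13.7 and 15.0 (limma adjusted p = 0.222). TRA2A (chr7:23544399-23571660), a splicing regulator, held 22 and 21 against 12 and 8, although the implied fragments in them, 1707 and 1984 against 2143 and 1036, overlapped between groups. SREBF1 (chr17:17713713-17740325), the transcription factor of lipid synthesis, held 24 and 34 against 21 and 15. ZNF124 (chr1:247285277-247335318), a zinc finger gene, held 20 and 32 against 19 and 11, and LSP1P4 (chr2:91805186-91847998), a pseudogene whose reads may be shared with its copies, 17 and 22 against 11 in both CRYM libraries. PUS7 (chr7:105080108-105162714), a pseudouridine synthase, held 16 and 11 against 3 in both, EMC3 (chr3:10004221-10052893), a subunit of the membrane protein insertion complex of the endoplasmic reticulum, 12 and 16 against 0 and 9, and HIVEP3 (chr1:41972036-42501596), a zinc finger transcription factor, 6 and 14 against 1 in both. Counting only short loci with at least 20 fragments, SLCO4A1 held 13 and 18 against 6 and 1, but the groups overlapped in ZNF124 (4 and 8 against 6 and 4), SREBF1 (18 and 30 against 19 and 13) and EMC3 (5 and 11 against 0 and 6). In 8 of the 10 wider loci the FPKM was not called, with limma adjusted p-values of 0.0689 to 0.394. Over all tested loci 33.3% were called in either direction, so most loci of any kind were not called. The wider locus at chr1:90098631-90402170 held 20 and 22 against 6 and 8, and its FPKM fell from 46.7 and 47.9 to 26.6 and 25.9 (limma adjusted p = 0.00559). The one at chr13:32974861-33112970 held 26 and 30 against 13 and 18 while its FPKM rose 1.32-fold, from 31.1 and 28.9 to 41.1 and 38.1 (limma adjusted p = 0.0329).

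Genes that handle or answer to thyroid hormone, the ligand of mu-crystallin, held 9 and 1 short loci with the empty vector and 15 and 17 with CRYM. Of 14 genes listed 5 were wider loci of this kind and 3 held short loci, beside 52.8% of all such wider loci. In FPKM 2 of the 5 were higher and 1 lower, beside 15.7% and 17.7% of all tested loci, with a median log2 difference of -0.24 beside 0.01 over all tested loci. THRB (chr3:24158651-24536773), the thyroid hormone receptor beta, had 1 and 0 with the empty vector and 8 and 7 with CRYM, none of them with 20 or more implied fragments. Its FPKM rose 2.13-fold, from 6.58 and 6.66 to 14.5 and 13.7 (log2 difference 0.98, SE 0.05, limma adjusted p = 0.00624). NCOR1 (chr17:15932471-16121499), a corepressor that THRB binds without hormone, had 7 and 1 against 7 and 9, and its FPKM fell from 38.5 and 39.2 to 28.7 and 28.2 (limma adjusted p = 0.00859). SLC16A10, a transporter of aromatic amino acids and thyroid hormone, had 1 short locus in empty vector library 1 and 1 in CRYM library 2. No short locus was listed in the list of prostate long noncoding RNAs, of which 1, LINC01088, was a wider locus of this kind, with a log2 difference of 0.09 that was not called.

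Of 20 androgen-induced genes 11 were tested wider loci, of which 2 (STEAP2 and TSC22D3) were higher and 8 lower in CRYM cells, beside 15.7% and 17.7% of all tested loci (median log2 difference -1.08). Of the 11, 6 held short loci, beside 52.8% of all such wider loci, with 10 and 26 with the empty vector and 11 and 19 with CRYM. KLK2 (chr19:51364824-51383823), a secreted kallikrein of the prostate, had 4 and 9 against 2 and 3, with an FPKM of 375.3 and 364.9 against 131.0 and 139.9 (limma adjusted p = 0.00484). The fewer short loci of KLK2 in CRYM cells carried more implied fragments, 713.8 and 887.3 against 152.1 and 382.4. TMPRSS2 (chr21:42836478-42903043), a membrane serine protease, had 2 and 6 against 2 and 7, although its FPKM fell from 317.5 and 305.4 to 71.5 and 71.8 (limma adjusted p = 0.00237). STEAP2, a metalloreductase, had 2 and 5 against 6 and 6, and its FPKM rose 1.40-fold, from 134.4 and 136.4 to 183.7 and 196.2 (limma adjusted p = 0.0132). KLK3, the gene of prostate-specific antigen, held no short locus in any library at the highest FPKM of the list, 1939 and 1874 against 863.3 and 900.4. Of 3 androgen-repressed genes, 2 were higher and 1 lower in FPKM, beside 15.7% and 17.7% of all tested loci, with a median log2 difference of 2.52. Among them UGT2B15, a glucuronosyltransferase with close paralogs, so that its reads are uncertain, had 1 short locus in each empty vector library and 0 in both CRYM libraries.

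Replication genes were lower in FPKM and held similar numbers of short loci in both groups. All 9 tested members of the list were lower in CRYM cells, beside 17.7% of all tested loci (median log2 difference -0.72). Their short loci numbered 7 in both empty vector libraries and 8 in both CRYM libraries. MCM2, a subunit of the replicative helicase, had 5 and 5 against 4 and 4, with an FPKM of 22.0 and 22.3 against 16.1 and 15.7 (limma adjusted p = 0.00933). CDC45, which joins that helicase, had 0 and 0 against 2 and 2, with an FPKM of 19.9 and 18.3 against 8.61 and 9.31. E2F1, the cell cycle transcription factor, had 0, 1, 2 and 1. Of 3 luminal transcription factors tested, 2 were lower and 0 higher in FPKM, beside 17.7% and 15.7% of all tested loci (median log2 difference -0.22). SPDEF had 0 and 0 against 2 and 4, while its FPKM fell from 86.9 and 84.5 to 46.8 and 48.0 (limma adjusted p = 0.00517), and CREB3L4 had 0, 1, 1 and 1. Of 3 nuclear long noncoding RNAs tested none was called, beside 33.3% of all tested loci (median log2 difference 0.14). The snoRNA host gene SNHG5 had 6 and 11 against 4 and 3, at an FPKM of 47.7 to 59.1 that was not called (limma adjusted p = 0.134). OIP5-AS1 had 1 short locus, in CRYM library 1, and NEAT1, the scaffold of paraspeckles, had none in any library at an FPKM of 497.3 to 568.8. These lists were drawn up with earlier results of these data known, and their counts of short loci are too small to order the groups.

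The highest FPKM values belonged to the shortest loci. The highest of all was the 60-bp locus chr21:22857789-22857848 in CRYM library 1, at 295360 FPKM on 134.0 implied fragments. Wider short loci overlapped it elsewhere, at 439.1 and 425.6 FPKM on 373.4 and 380.0 fragments in empty vector libraries 1 and 2. In CRYM library 2 the overlapping locus had 449.6 FPKM on 311.0 fragments. A 60-bp locus at chr21:22861974-22862033 reached 200535 and 190316 FPKM with the empty vector, and 221850 in CRYM library 2, on 108.0, 118.0 and 128.0 implied fragments, and no short counterpart in CRYM library 1. A locus of 64 to 68 bp at chr22:36234313-36234377 was present in all 4 with ends a few bases apart, at 141045, 92867, 154974 and 133326 FPKM on 468.1, 612.6, 334.9 and 473.4 fragments. There the library with the most fragments had the lowest FPKM and also the widest locus. FOLH1 (chr11:49168187-49230222), the gene of prostate-specific membrane antigen, held no short locus with the empty vector and 3 and 6 with CRYM. One of these, the 60-bp locus chr11:49183503-49183562, had 165313 and 133457 FPKM on 73.6 and 76.2 fragments. The FPKM of FOLH1 itself rose 1.44-fold, from 216.0 and 220.3 to 319.7 and 308.0 (limma adjusted p = 0.00796).

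In empty vector library 1 the highest short locus of at least 200 bp was chr10:32800264-32800665, within CCDC7, at 210.8 FPKM on 79.9 fragments, with 184.5 and 150.5 FPKM in empty vector library 2 and CRYM library 1 and a counterpart listed at 0 in CRYM library 2. In empty vector library 2 it was chr1:35650650-35650860, at 219.5 FPKM on 445.8 fragments. It had a short counterpart of 100.7 FPKM in the other empty vector library and no short counterpart in CRYM cells. In both CRYM libraries it was a locus on chromosome 20, chr20:42087292-42087504 in library 1 at 190.0 FPKM and chr20:42087278-42087504 in library 2 at 160.8 FPKM, where the empty vector libraries had 114.5 and 108.3 FPKM on narrower stretches. The best covered short locus of all lay in PRKACB, which encodes a catalytic subunit of protein kinase A. It had 514.3 and 604.2 implied fragments with the empty vector and 1486 and 1905 with CRYM, at 26.8, 28.1, 40.5 and 41.0 FPKM, and it was wider in CRYM cells (chr1:84639579-84640517 in library 1) than in empty vector cells (chr1:84639619-84640138 in library 1). The wider locus of PRKACB (chr1:84543745-84704181) was at 161.4 and 165.9 against 258.0 and 248.0 FPKM, and was not tested because its deposited status was not OK in every library. Another well covered locus, in MYO6, was built as chr6:76603617-76604333 with 1301 fragments in CRYM library 1 and 918.2 in an overlapping stretch of CRYM library 2, against 178.5 and 175.6 on narrower stretches in empty vector cells. Away from any wider locus, chr15:21905461-21905895 had 1361 fragments at 69.5 FPKM in empty vector library 1, and an overlapping locus had 1530 at 117.8 FPKM in CRYM library 1. The second library of each group had no short locus there, which does not say whether a longer locus covered the place.

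Short loci were found on every chromosome, with 5.88 per Mb on chromosome 13, the lowest, and 40.6 on chromosome 19, the highest, as means over the 4 libraries. Relative to the number of wider loci the range was narrower, from 2.77 on chromosome X to 4.76 on chromosome 21. The ratio of the CRYM to the empty vector libraries was above 1 on all 23 chromosomes, from 1.17 on chromosome 17 to 1.39 on chromosome 3. Few short loci touched annotated small genes: 107 to 134 per library overlapped a named antisense RNA under 5 kb, 58 to 93 a long intergenic RNA and 65 to 77 a pseudogene, each at most 0.375% of the total.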

How the data were processed

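FPKM of 4 polyadenylated RNA libraries of LNCaP cells, 2 per group, was taken from the deposited gene tracking tables, 1 per library, in which the authors give each locus an FPKM and an interval. Per the submitters' processing notes, the tools were Cufflinks 2.2.1 with Cuffdiff, Bowtie2 2.2.9 and TopHat2 2.1.1, on hg19. No source used here says whether quantification used strand.

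Loci were joined between tables by identical position. Short loci were selected in Python 3.11.15 (numpy 2.4.6, pandas 2.3.3, scipy 1.17.1) and placed against wider loci of at least 5 kb with FPKM of at least 1. An overlap needed 1 bp. Implied fragments are the square of 2 FPKM divided by the distance from FPKM to its upper bound, and relative depth is the inverse of the median FPKM per fragment at 60-bp loci. The total read number of a library is unknown.

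Loci listed with status OK in all 4 tables and with an FPKM of at least 1 in 2 or more libraries were tested with limma 3.58.1 on log2(FPKM + 1), with Benjamini-Hochberg adjustment over 10091 loci and a threshold of 0.05. Fold changes on that scale understate the change of low loci, and folds in the text are ratios of mean FPKM. The procedure was tested on simulated data. Single values were compared by an exact two-sided permutation test.

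Of 13634 unnamed loci of at least 1 kb, 11024 (80.9%) received a name from GENCODE 29 when exactly 1 gene lay between the same named neighbours with a length within 5%. Tried on 7217 loci with a known name, this gave 1 candidate for 6420 (89.0%), which was right for 6390 (99.5%). No FPKM limit was set on these loci, while 95.4% to 95.9% of wider loci with FPKM of at least 1 had no name in their library. The share of right names among such unnamed loci was therefore not measured.

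Named in the text are the 10 wider loci with most short loci, the 10 with the largest group difference in each direction among those whose groups do not overlap, the 6 regions per group found in both libraries of 1 group only, ranked by the lower FPKM at a width of at least 200 bp, the highest locus of at least 200 bp per library, and up to 3 genes per gene list. KLK3, NEAT1, TSC22D3, LINC01088, FOLH1, PRKACB and the loci with the highest FPKM or most fragments were added after their values were seen. The members and the lists were chosen with earlier results of these data known. Alternatives tried were other width, fragment, FPKM and distance limits, other definitions of a wider locus and of private, other pseudocounts, filters and scalings, a replicate block, and leaving out each library. No genome of the files' build was used.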

Additional observations from a re-analysis of the deposited data

How the results depend on the processing

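The ratio of short loci between groups, 1.25, was 1.16 to 1.35 leaving out 1 library, 1.53 when a locus counted only if at least 1 other library listed nothing overlapping it, and also 1.53 with 20 fragments scaled to depth, a limit chosen after seeing the data. Under the first of these the share away, -0.72 percentage points in the main definition, reversed to 5.18, and the difference in median width, -4 bp, reversed to 7. That definition itself leaves out most loci inside wider loci, so its share away is not of like kind with the main one. With near set to 1 kb the share away was -1.62, and it was -1.33 to -0.121 leaving out 1 library. Median width differed by 10.5 bp, a reversal, for loci with an FPKM of at least 1, by -8.5 bp with at least 20 fragments, and by -7 to -1 bp leaving out 1 library. The share inside, 2.39 points higher in CRYM cells, was 0.538 with an FPKM of at least 1, 1.34 against wider loci listed in all 4 tables, and 1.81 to 2.98 leaving out 1 library. The ratio of median FPKM, 1.20, was 1.04 with an FPKM of at least 1 and 1.10 to 1.31 leaving out 1 library. Overlap with any listed locus of another library, 90.6% of short loci, was 48.9% when only short assembled loci counted. The wider loci with more short loci in CRYM cells, 842, and with fewer, 275, were 1136 to 1624 and 492 to 690 leaving out 1 library. The cause of these shifts was not tested, beyond the smaller number of libraries that must then order the same way.

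The limma test called 3365 loci, 1871 (788 higher and 1083 lower) with no filter on FPKM, where 26482 loci were tested, and 0 leaving out any 1 library, where 3627 to 3815 loci had an unadjusted p under 0.05. With the replicate number as a block it called 0, with 3820 at an unadjusted p under 0.05 and a smallest adjusted p of 0.0569. The labels share replicate numbers without saying that they pair the libraries, and the correlation between libraries with the same number, taken on deviations from group means over 10091 loci, was 0.0361, so the block has no support from the design. The other settings called 2773 to 3374. For named wider loci, 263 of the FPKM results stayed on the same side of the threshold under settings that keep all libraries, 25 lost the call and 1 gained it. Direction was checked only where the main setting gave a call, and none of those results reversed. Depth limits the values that rest on under 20 fragments: of the numbers in 50 named wider loci, 20 moved by more than the spread between libraries when only better covered loci counted, THRB to 0 in all 4 libraries.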
